A study of Mus musculus with 6 samples.

Results

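Lysosomes are the acidic compartments in which hydrolases take apart lipids, proteins and glycans that arrive by endocytosis and autophagy. Sphingolipids are removed one sugar or sulfate at a time by enzymes that need small activator proteins, the cathepsins and their relatives cut proteins, and heavily glycosylated membrane proteins such as the LAMPs line the compartment. In peripheral nerve, myelin is rich in galactosylceramide and sulfatide, and loss of the enzymes that break these lipids down, *Galc* in Krabbe disease and *Arsa* in metachromatic leukodystrophy, damages the sheath.

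The members described here are 41 lysosomal genes of the 24015 genes counted, chosen by symbol from a list of hydrolases, activators, membrane proteins and regulators, with no measured value in the rule. By role, 10 degrade sphingolipids or activate the enzymes that do, 12 are proteases, 9 act on glycosaminoglycans, glycoproteins or glycogen, 2 are a lipase and a thioesterase, 6 are membrane proteins, and 2 are a regulator and a growth factor. All 41 passed the filter on low counts, which left 11371 genes for testing. RNA was sequenced from whole sciatic nerves of mice at postnatal day 14, in 3 libraries per genotype, each from a pool of 3 nerves, and the study used male and female animals. Control mice were Rnf40 fl/fl, and Rnf40ΔSC mice carried Dhh::Cre on top of the same floxed alleles of *Rnf40*, which encodes part of the ubiquitin ligase that modifies histone H2B. Dhh::Cre acts in the Schwann cell lineage, and by staining the study reports complete loss of Rnf40 from Schwann cells of the sciatic nerve at birth. It also reports that other cells of embryonic spinal nerves stayed positive for Rnf40. Which of the other cell types in the same RNA kept the gene was not tested here. The labels give a mixed 129SvJ/C57Bl/6J strain for both genotypes and the study's methods C3H × C57Bl/6J, and the kit also differs between the labels (NEB Next Ultra) and the methods (a directional kit).

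The control libraries, numbered 1 to 3 as in the labels, held 1317167, 1992622 and 2468765 counted reads, and the Rnf40ΔSC libraries 2184268, 1459387 and 2186710. Of these, 8238, 12787 and 16262 control reads and 16396, 11074 and 16694 Rnf40ΔSC reads fell on members. That is 0.625%, 0.642% and 0.659% of the control counts and 0.751%, 0.759% and 0.763% of the Rnf40ΔSC counts, so every Rnf40ΔSC library gave the members a larger share of its reads. A single read was worth between 0.414 and 0.823 CPM (counts scaled to a library of 1000000), and *Gla*, the least counted of the sphingolipid genes, had a mean of 12.7 normalised counts. The counts below are normalised by TMM factors (trimmed mean of M values), which were 0.928, 0.893 and 0.913 in the control and 1.07, 1.10 and 1.11 in the Rnf40ΔSC libraries. Under plain scaling to total counts the log2 fold change at the median of the tested genes shifted by 0.27, so changes are relative to the bulk of the genes, and a member whose fold change is small can have the opposite sign per total read.

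Libraries also differed in RNA of skeletal muscle, which lies beside the nerve. The 12 muscle markers listed summed to 4277, 3183 and 2418 CPM in control and 113, 248 and 2937 in Rnf40ΔSC libraries. Rnf40ΔSC 3 was among the controls, and the other Rnf40ΔSC libraries were far below them. *Myh4*, the most abundant of the 12, had a log2 fold change of −2.16 (SE 1.35; edgeR adjusted p = 0.33). With all libraries edgeR called 0 of the 12 and DESeq2 0 of the 9 for which it gave a test, and 0 had an unadjusted p under 0.05 in edgeR, where leaving out Rnf40ΔSC 3 gave 11 called lower. None of the 41 members is a muscle marker, the part of muscle in their values was not tested, and member calls that change without Rnf40ΔSC 3 are given beside each result.

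*Rnf40* itself (chr7:134732212-134747119 in mm9) had 127, 123 and 138 normalised counts in control and 87.7, 87.9 and 91.5 in Rnf40ΔSC nerves. All 3 Rnf40ΔSC libraries were below all 3 controls, at 89.0 ± 2.16 against 129 ± 7.92 (mean ± SD, n = 3 each). The log2 fold change of Rnf40ΔSC over control was −0.54 (SE 0.14; edgeR quasi-likelihood test, Benjamini-Hochberg adjusted p = 0.00242), and it was −0.27 with an adjusted p of 0.12 under total-count scaling, the only alternative of 12 at which the edgeR or DESeq2 call was lost (range of adjusted p 0.00235 to 0.12). Reads over the whole gene are counted, exons outside the floxed part included, in RNA that also comes from cells without Cre.

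With a gene called when its edgeR adjusted p was at most 0.05, 12 of the 41 members fell in Rnf40ΔSC nerves, 5 rose and 24 were not called. Over all 11371 tested genes 16.2% were called lower and 15.4% higher. The study's own limits also ask for a log2 fold change of 0.8 or more in size and for 20 or more normalised counts on average, which left 1 member, *Lipa*, where 4.99% of all genes were lower and 3.65% higher. The median log2 fold change of the members was −0.21, beside −0.0026 over all tested genes, and 29 members were below 0 and 12 above it. In 16 members every Rnf40ΔSC library lay below every control library and in 6 every one lay above, where the same held for 21.6% and 22.0% of all genes. Those 16 are the 12 called lower with *Arsa*, *Ctsa*, *Ctss* and *Cln3*, and the 6 are the 5 called higher with *Tpp1*. Without control 3 the members called lower numbered 7 and those called higher 2, beside 1439 and 1293 of 11615 tested genes. Without Rnf40ΔSC 2 they numbered 7 and 3, beside 1605 and 1526 of 11634 genes. By DESeq2 they numbered 8 and 2, beside 1178 and 1110 of 17134 genes. These 17134 are all genes with a DESeq2 p, and any to which DESeq2 gave no adjusted p count as not called. The share among genes with an adjusted p is therefore not given. In RNA of the whole nerve, fewer cells of a type and less RNA per cell cannot be told apart, which holds for every member.

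Per total read the picture of the members shifted with that of all genes. Under total-count scaling 5 members were called lower (*Lipa*, *Gm2a*, *Gaa*, *Galc* and *Ids*) and 10 higher, against 880 and 3766 of all genes. The 10 were the 5 called higher under TMM with *Psap* (0.32), *Ctsd* (0.30), *Tpp1* (0.46), *Lamp2* (0.32) and *Mcoln1* (0.43 on the log2 scale). Of the 12 members that fell, *Ctsb* (0.05) and *Ctsl* (0.01) changed sign under this scaling, as did 11 of the 24 that were not called. Since the change of scale moves every gene by about the same amount, subtracting the median of all genes gives the TMM values back by construction (a members' median of −0.21).

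**Figure D1:**
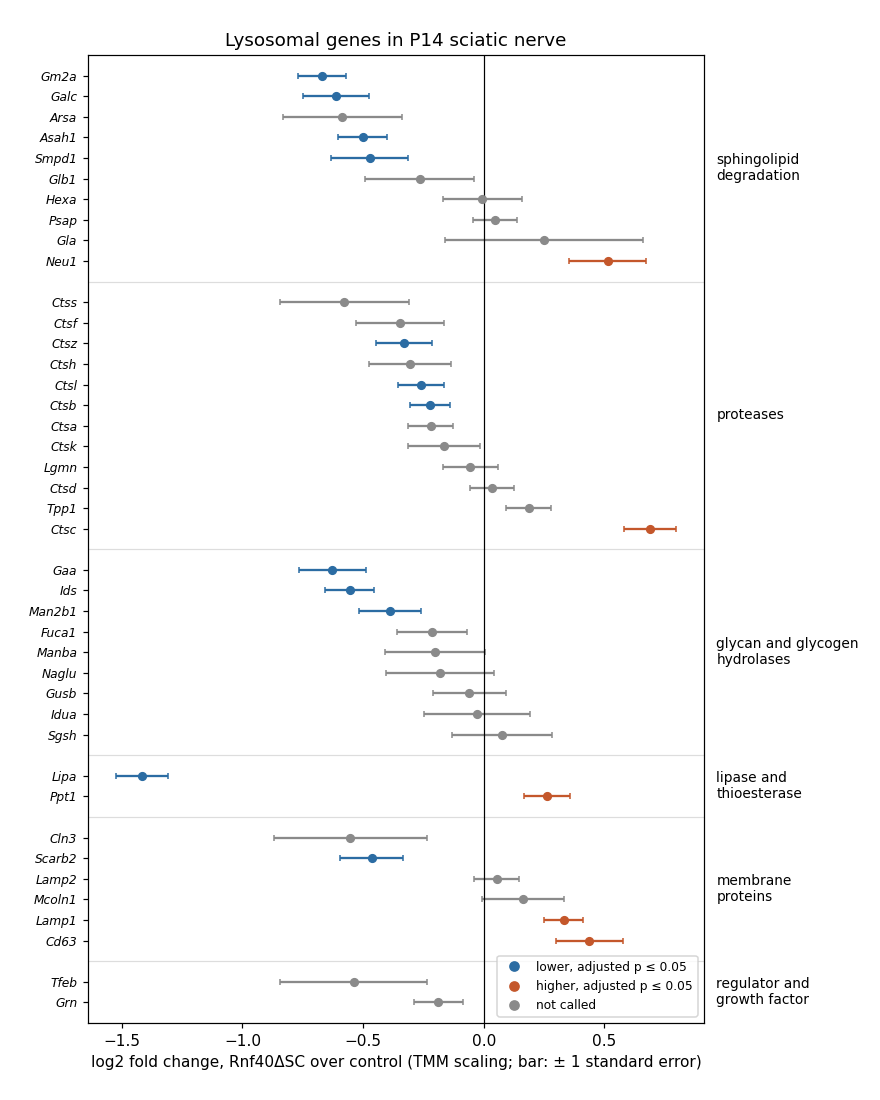
Log2 fold change of Rnf40ΔSC over control for each of the 41 members, grouped by role, with bars of 1 standard error from the edgeR fit (n = 3 libraries per genotype) and blue, orange and grey points for genes called lower, higher and not called. *Lipa* lies lowest at −1.42 and *Ctsc* highest at 0.69 (−1.15 and 0.96 under total-count scaling).

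Among the 10 sphingolipid genes, *Galc* encodes the galactosylceramidase that removes galactose from galactosylceramide, a main lipid of myelin (chr12:99440514-99497669 in mm9). It had 134, 162 and 138 normalised counts in control and 99.8, 102 and 84.5 in Rnf40ΔSC libraries. Every Rnf40ΔSC library was lower than every control, and the third had the fewest. The means were 145 ± 15.1 and 95.4 ± 9.48 (SD, n = 3), a log2 fold change of −0.61 (SE 0.14; edgeR adjusted p = 0.000637), and the call held in all 12 alternatives (log2 −0.66 to −0.34). *Arsa*, whose product takes the sulfate off sulfatide, had 30.9, 48.7 and 34.3 normalised counts in control and 21.7, 28.1 and 27.2 in Rnf40ΔSC nerves. The groups of *Arsa* did not overlap, but it did not pass the threshold, at a log2 fold change of −0.59 (SE 0.25; edgeR adjusted p = 0.0671), or −0.37 without control 2. It shares 690 of 3680 exon bases in mm9 with an untested transcript on the opposite strand.

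*Gm2a* encodes the activator that lifts ganglioside GM2 out of the membrane for hexosaminidase. Its normalised counts were 370, 429 and 402 in control and 244, 247 and 265 in Rnf40ΔSC libraries. Every Rnf40ΔSC library was far below every control, and the Rnf40ΔSC values were tight. This gene had the smallest adjusted p of the sphingolipid genes, at a log2 fold change of −0.67 (SE 0.10; edgeR adjusted p = 1.36e-06), and was called in all 12 alternatives. *Asah1*, the acid ceramidase that splits ceramide into sphingosine and a fatty acid, had 459.9, 462 and 371 normalised counts in control and 313, 315 and 282 in Rnf40ΔSC libraries. The third library was the lowest in both groups, and the groups did not overlap. Its log2 fold change was −0.50 (SE 0.10; edgeR adjusted p = 0.000192), with the call lost under total-count scaling alone (adjusted p = 0.0674, range 2.59e-05 to 0.0674).

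*Smpd1*, the acid sphingomyelinase, had 125, 86.9 and 108 normalised counts in control and 69.2, 72.6 and 85.3 in Rnf40ΔSC libraries. The highest Rnf40ΔSC library came within a few counts of the lowest control without reaching it. At a log2 fold change of −0.47 (SE 0.16; edgeR adjusted p = 0.0204) it was called, but not without control 1 (adjusted p = 0.124), control 3 (0.0854), Rnf40ΔSC 1 (0.11) or Rnf40ΔSC 2 (0.0515), nor by DESeq2 (0.123) or under total-count scaling (0.329), in a range of 0.00878 to 0.329. *Neu1*, the sialidase that takes sialic acid from glycoproteins and gangliosides, was the one sphingolipid gene that rose under TMM scaling. Its normalised counts were 71.0, 71.0 and 68.6 in control and 109, 108 and 84.5 in Rnf40ΔSC libraries. The controls lay close together, and of the Rnf40ΔSC libraries the third was nearest to them. Its log2 fold change was 0.51 (SE 0.16; edgeR adjusted p = 0.0115), and the call was lost without control 3 (0.0574), without Rnf40ΔSC 1 (0.0656) and by DESeq2 (0.0789), in a range of 0.000146 to 0.0789.

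*Psap* encodes the precursor of the saposins, which activate *Galc*, *Arsa* and other enzymes of this pathway, and was the most abundant of the 10 per length of exon, at 272 ± 5.36 CPM per kilobase in control (SD, n = 3), ahead of *Asah1* at 67.8 and *Gm2a* at 51.8 (*Glb1*, with 2 annotation entries, has no length here). It had 1369, 1422 and 1385 normalised counts in control and 1388, 1249 and 1676 in Rnf40ΔSC libraries. Rnf40ΔSC 2 was below all controls and Rnf40ΔSC 3 above them. *Psap* was not called, at a log2 fold change of 0.05 (SE 0.09; edgeR adjusted p = 0.734), or −0.07 without Rnf40ΔSC 3. Whether *Psap* and *Gm2a* changed by different amounts was not tested. *Hexa*, *Glb1* and *Gla*, which cleave hexosamine or galactose from gangliosides and globosides, had log2 fold changes from −0.27 to 0.25 and were not called (edgeR adjusted p 0.398 to 0.985). Of the 10, 4 fell and 1 rose (2 and 2 under total-count scaling, 3 and 0 by DESeq2).

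Among the 12 proteases, *Ctsc* (chr7:95426595-95459398 in mm9), a dipeptidyl peptidase that activates serine proteases of immune cells, was the only one called higher with all libraries and TMM scaling. It had 208, 180 and 179 normalised counts in control and 332, 300 and 276 in Rnf40ΔSC libraries. Every Rnf40ΔSC library was far above every control. The means were 189 ± 16.6 and 303 ± 28.2 (SD, n = 3), a log2 fold change of 0.69 (SE 0.11; edgeR adjusted p = 3.99e-06), and it was called in all 12 alternatives (log2 0.63 to 0.96).

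The 3 proteases that fell did so by less. *Ctsz*, a carboxypeptidase, had 216, 206 and 223 normalised counts in control and 163, 146 and 199 in Rnf40ΔSC libraries. Rnf40ΔSC 3 was the nearest to the controls. *Ctsz* had a log2 fold change of −0.33 (SE 0.12; edgeR adjusted p = 0.0276), and the call was lost without control 1 (0.0606), control 3 (0.126), Rnf40ΔSC 1 (0.124) and Rnf40ΔSC 2 (0.148), by DESeq2 (0.148) and under total-count scaling (0.714), the highest of a range that starts at 0.0025. *Ctsl*, an endopeptidase, had 560.2, 643 and 624 normalised counts in control and 555, 463 and 507 in Rnf40ΔSC libraries. Control 1 and Rnf40ΔSC 1 were almost equal. The log2 fold change was −0.26 (SE 0.10; edgeR adjusted p = 0.033) and 0.01 under total-count scaling, and the call was lost without control 2 (0.136), control 3 (0.137) and Rnf40ΔSC 2 (0.158) and by DESeq2 (0.0857), in a range of 0.0229 to 0.961.

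*Ctsb*, which cuts proteins inside the chain and trims dipeptides from their ends, had 1150, 1177 and 1175 normalised counts in control and 1013, 962 and 1025 in Rnf40ΔSC libraries. Both groups were tight and did not overlap. Its log2 fold change was −0.22 (SE 0.08; edgeR adjusted p = 0.0409) and 0.05 under total-count scaling. The call was lost without control 1 (0.0594), control 2 (0.0894), control 3 (0.134), Rnf40ΔSC 1 (0.108) and Rnf40ΔSC 2 (0.127), and also with either other filter on low counts (0.0697 and 0.0535) or with the replicate number as a block (0.054), in a range over alternatives of 0.0258 to 0.693. *Ctsb* shares 769 of its 4738 exon bases in mm9 with *Fdft1* on the opposite strand, a gene of cholesterol synthesis with a log2 fold change of −2.78 (edgeR adjusted p = 2.21e-18). Whether reads were counted by strand is not given in the sources used here, so reads of these genes over the shared bases cannot be told apart.

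*Ctsd*, the aspartic protease of the lysosome, had 684, 676 and 761 normalised counts in control and 728, 729 and 721 in Rnf40ΔSC libraries. All 3 Rnf40ΔSC values fell inside the range of the controls. It was not called, at a log2 fold change of 0.04 (SE 0.09; edgeR adjusted p = 0.801). Per length, *Ctsl* (164.5 CPM per kilobase in control), *Ctsd* (149.7) and *Ctsb* (131) were the most abundant of the proteases, and *Ctsc* stood at 17.4 in control and 27.9 in Rnf40ΔSC nerves. The other 7 proteases (*Ctsa*, *Ctsf*, *Ctsh*, *Ctsk*, *Ctss*, *Lgmn* and *Tpp1*) had log2 fold changes from −0.58 for *Ctss* to 0.19 for *Tpp1* and edgeR adjusted p from 0.069 to 0.755. Without Rnf40ΔSC 3, *Ctsa* (0.0281) and *Ctss* (0.0397) were called lower and *Tpp1* (0.0411) higher; *Ctsa* shares 495 of 4715 exon bases with *Pltp* on the opposite strand, which fell (log2 −0.65, edgeR adjusted p = 0.000341). Without Rnf40ΔSC 1, *Ctsh* was called lower (log2 −0.54, adjusted p = 0.0272). The number of proteases called lower was thus 3 with all libraries and 1 without control 1 or control 2. It was 0 without control 3 or Rnf40ΔSC 2, 5 without Rnf40ΔSC 3 and 1 by DESeq2. Under total-count scaling edgeR called 0 lower and 3 higher, beside 880 and 3766 of all 11371 genes.

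The sphingolipid genes were next set against the proteases. The median log2 fold change was −0.37 over the 10 sphingolipid genes and −0.22 over the 12 proteases (−0.10 and 0.05 under total-count scaling). The difference of the medians was −0.148, and the same quantity varied with an SD of 0.147 between libraries, so it was about as large as the spread. It became 0.09 with *Asah1* and *Smpd1* left out, and −0.25 over members with at least 10 counts in every library. Left-out libraries moved it to −0.04 (control 2), −0.08 (Rnf40ΔSC 1), −0.06 (Rnf40ΔSC 2) and −0.27 (Rnf40ΔSC 3). In summed CPM the sphingolipid genes amounted to 0.661, 0.673 and 0.614 of the proteases in control and 0.593, 0.572 and 0.675 in Rnf40ΔSC libraries. Rnf40ΔSC 3, the library with the most *Psap*, had the highest ratio of all 6, and the groups overlapped at 0.649 ± 0.0315 and 0.613 ± 0.0545 (SD, n = 3). With the gene of the largest CPM taken out of each group, *Psap* and *Ctsb*, the ratio was 0.457, 0.470 and 0.407 in control and 0.340, 0.336 and 0.345 in Rnf40ΔSC libraries. All 3 Rnf40ΔSC ratios then lay below the controls, at 0.340 ± 0.00435 against 0.445 ± 0.0330.

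Of the 9 hydrolases of glycosaminoglycans, glycoproteins and glycogen, 3 fell and the other 6 were not called. *Ids*, the iduronate sulfatase of heparan and dermatan sulfate, had 303, 323 and 310 normalised counts in control and 204, 220.2 and 213 in Rnf40ΔSC libraries. The groups lay far apart and the spread within each was small. Its log2 fold change was −0.56 (SE 0.10; edgeR adjusted p = 4.14e-05), and it was called in all 12 alternatives. *Gaa*, the acid glucosidase that clears glycogen, had 125, 162 and 132 normalised counts in control and 90.9, 87.9 and 93.1 in Rnf40ΔSC libraries. Control 2 was the highest of the 6, and the Rnf40ΔSC libraries were nearly equal. A log2 fold change of −0.63 resulted (SE 0.14; edgeR adjusted p = 0.000561), and the gene was again called in all 12 alternatives.

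*Man2b1*, the mannosidase that trims glycoprotein sugars, had 159, 143 and 153 normalised counts in control and 115, 105 and 124 in Rnf40ΔSC libraries. No libraries overlapped. Its log2 fold change was −0.39 (SE 0.13; edgeR adjusted p = 0.0179), and the call was lost without control 1 (0.058), control 3 (0.0683), Rnf40ΔSC 1 (0.0595) and Rnf40ΔSC 2 (0.0672), by DESeq2 (0.116) and under total-count scaling (0.484), where the range began at 0.0118. *Fuca1*, *Manba*, *Naglu*, *Gusb*, *Idua* and *Sgsh*, which cut other sugar or sulfate bonds, had log2 fold changes from −0.21 to 0.08 (edgeR adjusted p 0.282 to 0.941). The 9 genes summed to 531, 536 and 529 CPM in control and 407, 414 and 430 in Rnf40ΔSC libraries, a lower sum in every Rnf40ΔSC library. Per total read the sums were barely apart, with 475.1 in Rnf40ΔSC 3 against 475.8 in control 2. The median log2 fold change of the 9 genes was −0.20 under TMM scaling and 0.07 under total-count scaling. Per length the most abundant were *Ids* (32.6 CPM per kilobase in control), *Man2b1* (18.7) and *Fuca1* (17.9).

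*Lipa* encodes the lysosomal acid lipase, which frees cholesterol and fatty acids from the esters that lipoproteins and lipid droplets bring in (chr19:34566808-34601964 in mm9). It had 394, 485 and 451 normalised counts in control and 159, 186 and 157 in Rnf40ΔSC libraries. All Rnf40ΔSC libraries were far below all controls. The means were 443 ± 46.2 and 167 ± 16.4 (SD, n = 3). The fitted fold was 0.374, a log2 fold change of −1.42 (SE 0.11; edgeR adjusted p = 2.1e-13). *Lipa* was called and past the study's limits in all 12 alternatives, at log2 −1.49 to −1.15. Per length it went from the sixth place among the 40 members with an exon length, 79.6 CPM per kilobase, to 30.1.

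*Ppt1*, the thioesterase that takes palmitate off proteins, moved the other way, with 434, 521 and 495 normalised counts in control and 569, 602 and 576 in Rnf40ΔSC libraries. Control 1 was the lowest, and no Rnf40ΔSC library reached down to the controls. *Ppt1* had a log2 fold change of 0.26 (SE 0.09; edgeR adjusted p = 0.0296), and the call was lost without control 1 (0.171), control 3 (0.0846) and Rnf40ΔSC 2 (0.0729) and by DESeq2 (0.0558), in a range of 2.28e-05 to 0.171. It shares 129 of 3675 exon bases with *Cap1* on the opposite strand, which had a log2 fold change of −0.32 (edgeR adjusted p = 0.00769).

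Of the 6 membrane proteins, *Lamp1*, which covers much of the inner face of the lysosomal membrane (chr8:13159135-13175338 in mm9), was the most abundant member per length, at 656 ± 45.9 CPM per kilobase in control. It had 2550, 2878 and 2893 normalised counts in control and 3647, 3662 and 3171 in Rnf40ΔSC libraries. Rnf40ΔSC 3 was the lowest of its group and still above every control. The log2 fold change was 0.33 (SE 0.08; edgeR adjusted p = 0.00136), and the call held in all 12 alternatives (log2 0.27 to 0.60). *Lamp1* shares 177 of 2255 exon bases with *Grtp1* on the opposite strand, a gene that was not tested. *Lamp2*, its close relative, had 679, 732 and 828 normalised counts in control and 730, 844 and 758 in Rnf40ΔSC libraries. The groups overlapped in part, with control 1 the lowest and Rnf40ΔSC 2 the highest of the 6. It was not called, at a log2 fold change of 0.05 (SE 0.09; edgeR adjusted p = 0.712), and whether the 2 LAMP genes changed by different amounts was not tested.

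*Scarb2* encodes LIMP-2, the receptor that carries glucocerebrosidase to the lysosome, and had 178, 163 and 149 normalised counts in control and 127, 97.2 and 124 in Rnf40ΔSC libraries. All Rnf40ΔSC libraries were lower, the second most so. Its log2 fold change was −0.46 (SE 0.13; edgeR adjusted p = 0.00587), and only total-count scaling lost the call (0.243, range 0.00402 to 0.243). *Cd63*, a tetraspanin of late endosomes and lysosomes, had 120.4, 128 and 105 normalised counts in control and 149, 193 and 139 in Rnf40ΔSC libraries. Rnf40ΔSC 2 stood above the rest. The log2 fold change was 0.44 (SE 0.14; edgeR adjusted p = 0.0127), and the call was lost without control 3 (0.121), without Rnf40ΔSC 2 (0.112) and by DESeq2 (0.0762), in a range of 9.86e-05 to 0.121. *Cln3* (−0.55), whose loss causes juvenile Batten disease, and the calcium channel *Mcoln1* (0.16) were not called (edgeR adjusted p = 0.187 and 0.501).

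**Figure D2:**
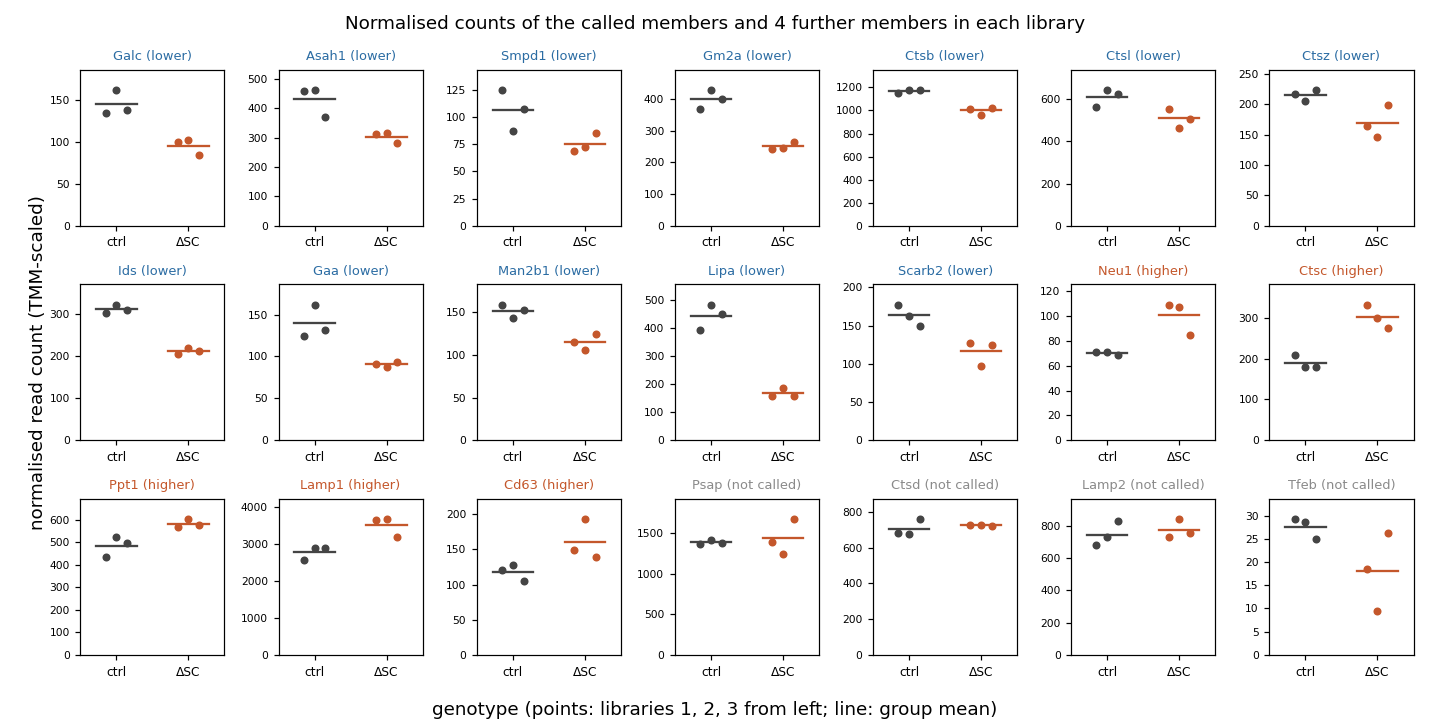
Normalised counts of members in each library, with a point per library (1 to 3 from the left) on a linear axis from 0 and a line at the mean of each genotype (n = 3). The 3 Rnf40ΔSC libraries of *Lipa* lie at 157 to 186 counts and its controls at 394 to 485, while those of *Ctsd* lie inside the control range.

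The weight of each role within the members was compared next. The membrane proteins took 28.4%, 29.5% and 30.1% of the members' summed CPM in control and 36.0%, 37.8% and 33.3% in Rnf40ΔSC libraries. The groups did not overlap, at 29.3 ± 0.862% and 35.7 ± 2.28% (SD, n = 3). Without *Lamp1* the other 5 membrane proteins summed to 567, 596 and 642 CPM in control and 585, 663 and 606 in Rnf40ΔSC libraries, which overlap. Per total read they did not, at 522, 529 and 582 in control and 624, 726 and 670 in Rnf40ΔSC libraries. The proteases made up 32.5%, 31.5% and 32.3% in control and 31.3%, 30.3% and 30.9% in Rnf40ΔSC libraries. The sphingolipid genes made up 21.5%, 21.2% and 19.8% in control and 18.6%, 17.3% and 20.9% in Rnf40ΔSC libraries, with Rnf40ΔSC 3 inside the range of the controls. A share of this kind is the same under any scaling of a library.

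Summed over all 41 members the genotypes overlapped, with 6783, 7225 and 7258 CPM in control and 7039, 6921 and 6908 in Rnf40ΔSC libraries. The 33 hydrolases and activators alone summed to 4638, 4885 and 4813 CPM in control and 4304, 4127 and 4398 in Rnf40ΔSC libraries, which is lower in every Rnf40ΔSC library under TMM scaling but higher in every one per total read. Scaled to total counts, the sums of these 33 genes were 4277, 4339 and 4368 in control and 4590, 4525 and 4861 in Rnf40ΔSC libraries. Those of all 41 members were then also higher in each Rnf40ΔSC library, at 6254, 6417 and 6587 in control and 7506, 7588 and 7634 in Rnf40ΔSC libraries. Of the 33 genes, 11 fell and 3 rose, with a median log2 fold change of −0.22 (0.05 under total-count scaling). The balance of calls moved toward higher under total-count scaling, as it did over all 11371 genes (880 lower and 3766 higher). Of the sphingolipid genes 2 were then lower and 2 higher, and of the proteases 0 and 3. Of the glycosaminoglycan, glycoprotein and glycogen hydrolases 2 were then lower and 0 higher, and of the lipase and thioesterase 1 and 1. The 6 membrane proteins, of which 1 fell and 2 rose (0 and 4 under total-count scaling), had a median of 0.11 (0.38 under total-count scaling). That median was 0.04 without control 1 and without control 2, 0.24 without control 3, 0.20 without Rnf40ΔSC 1, 0.07 without Rnf40ΔSC 2 and 0.07 without Rnf40ΔSC 3.

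**Figure D3:**
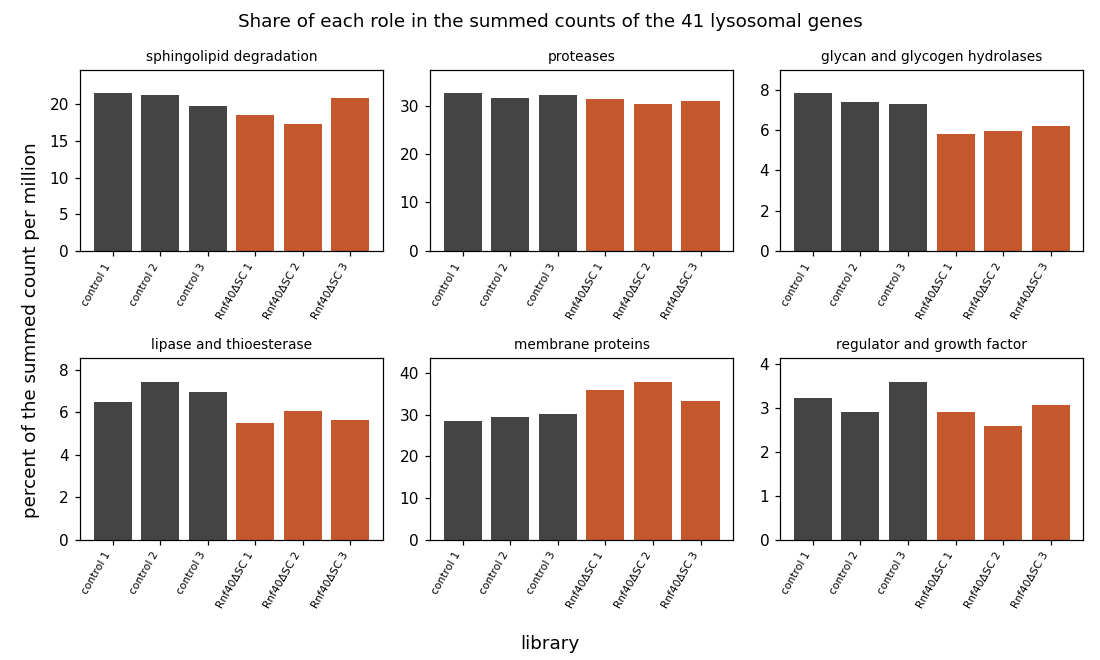
Percent of the members' summed CPM in each role, for each of the 6 libraries, plotted by genotype. Bars start at 0; the membrane proteins lie at 28.4 to 30.1% in the control libraries and at 33.3 to 37.8% in the Rnf40ΔSC libraries, and the sphingolipid genes of Rnf40ΔSC 3 lie among the controls.

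*Tfeb* encodes a transcription factor that drives many lysosomal genes. It had 29.3, 28.6 and 25.1 normalised counts in control and 18.5, 9.37 and 26.4 in Rnf40ΔSC libraries. Rnf40ΔSC 3 lay among the controls and Rnf40ΔSC 2 was far below them. It was not called, at a log2 fold change of −0.54 (SE 0.31; edgeR adjusted p = 0.181), but without Rnf40ΔSC 3 it was called and past the study's limits at −0.89 (adjusted p = 0.0384), and without Rnf40ΔSC 2 it was at −0.28 (adjusted p = 0.539). Under total-count scaling it was at −0.27 (adjusted p = 0.509). *Grn*, the progranulin precursor, was not called either, at −0.19 (SE 0.10; edgeR adjusted p = 0.162).

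TFEB and its relatives bind the E-box CACGTG, which many lysosomal promoters hold within the longer form TCACGTGA. Promoter windows from 250 bases before to 50 after the start were taken from RefSeq (build GRCm38.p6) for 38 of the 41 members; *Ctsb*, *Ctsh* and *Asah1* have no entry. Both motifs read the same on both strands, and each longer form contains the E-box. The E-box was found in 14 of the 38 members (36.8%) and in 8.09% of all 27025 genes of the table, and the longer form in 5 of 38 (13.2%) and in 1.12% of all genes. Counted by promoter, it was in 31.8% of the members' 44 promoters and in 7.15% of all 32851, and the longer form in 11.4% and 0.974%. Among the members called lower the E-box was in 2 of 10 and among those called higher in 1 of 5, against 11 of the 23 that were not called. All 5 members with the longer form (*Ctsa*, *Ctsd*, *Cln3*, *Gla* and *Mcoln1*) were in the group not called by the main fit. Under alternatives 3 of them were called, *Ctsd* (adjusted p = 0.00706) and *Mcoln1* (0.0415) higher under total-count scaling and *Ctsa* lower without Rnf40ΔSC 3 (0.0281). Of 22 matches, 21 lay before the start and 14 within the 100 bases before it. A match is a description, not a site or a cause. The stretches shown are those of the 3 called members with a match, *Lamp1* (chr8:13159080-13159160, + strand), *Gaa* (chr11:119267803-119267848, + strand) and *Ctsl* (chr13:64370731-64370770, − strand). They stand beside 4 members with the longer form and no call in the main fit, *Ctsa* (chr2:164833740-164833772, + strand), *Ctsd* (chr7:142387899-142387946, − strand), *Mcoln1* (chr8:3500428-3500500, + strand) and *Cln3* (chr7:126583331-126583405, − strand). All read 5′ to 3′ on the gene's strand, and capitals mark the matches, of which *Lamp1* has 4 of the short form. The stretches are parts of the promoters, and *Ctsa* and *Ctsd* each have 1 more match outside the part shown.
Lamp1: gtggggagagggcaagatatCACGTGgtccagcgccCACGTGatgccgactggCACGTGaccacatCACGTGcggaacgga
Gaa: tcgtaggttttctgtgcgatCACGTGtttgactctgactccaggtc
Ctsl: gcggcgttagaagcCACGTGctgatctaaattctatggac
Ctsa: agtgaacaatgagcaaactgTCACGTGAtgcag
Ctsd: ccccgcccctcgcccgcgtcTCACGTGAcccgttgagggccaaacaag
Mcoln1: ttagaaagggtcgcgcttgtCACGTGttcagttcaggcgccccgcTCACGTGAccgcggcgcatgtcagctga
Cln3: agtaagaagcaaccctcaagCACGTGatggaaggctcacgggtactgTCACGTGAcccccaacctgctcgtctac

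**Figure D4:**
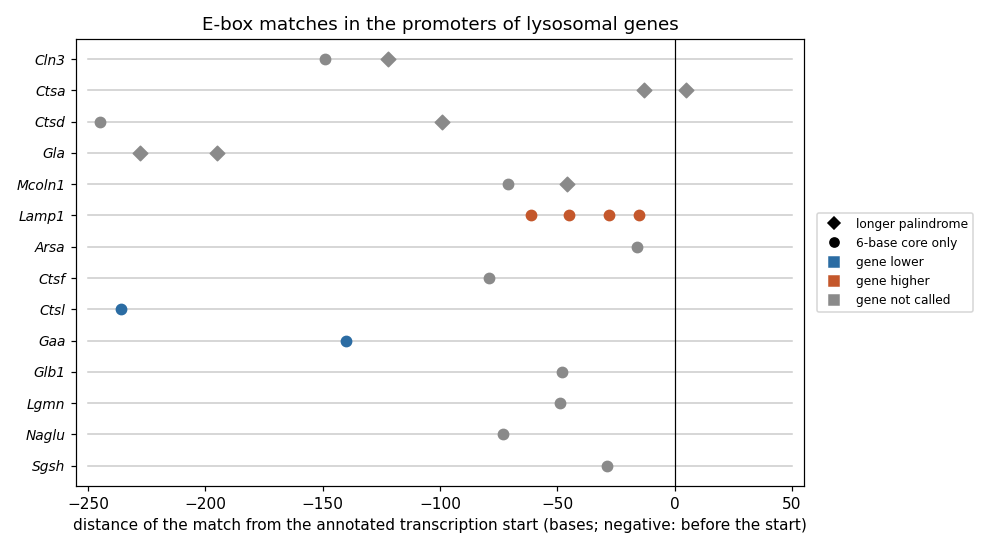
Position of each E-box match, in bases from the start of the gene, in the promoters of the 14 members that have one, coloured by call, with diamonds for the longer form. *Lamp1*, called higher, has 4 matches before the start, and the members not called hold every match of the longer form.

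Other genes of the pathway were taken from lists that hold no member, and for the named genes calls lost when 1 library was left out are given with that library. Of 25 other lysosomal hydrolases and cofactors 23 were tested, 6 fell and 2 rose, at a median log2 fold change of −0.21. DESeq2 called 3 lower and 1 higher. Under total-count scaling 1 was lower (*Npc2*) and 5 higher, where 880 of all 11371 tested genes were lower and 3766 higher. The same background applies to the total-count calls of the lists below. The median was −0.17 to −0.12 with 1 library left out, the smallest without control 3. The called genes ran from *Dnase2a*, a nuclease (−1.30, edgeR adjusted p = 0.0362), to *Cpq*, a peptidase (0.57, edgeR adjusted p = 0.0136). *Dnase2a* lost its call without control 1 (0.0649), control 2 (0.111), control 3 (0.153), Rnf40ΔSC 1 (0.235) and Rnf40ΔSC 2 (0.108), and *Cpq* without control 2 (0.0638). The number called lower was 3 without Rnf40ΔSC 1 and the number called higher 1 without control 2. The summed level of this list was 1586, 1607 and 1640 CPM in control and 1361, 1385 and 1432 in Rnf40ΔSC libraries, which is lower in every Rnf40ΔSC library, whereas per total read the genotypes overlapped.

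Of 19 other lysosomal membrane proteins 18 were tested and 4 fell (*Cd68*, *Mfsd8*, *Ctns* and *Tmem55b*), at a median of −0.10. That median was −0.01 by DESeq2, −0.02 with no filter and −0.02 with at least 10 counts in every library. DESeq2 called 2 lower, and under total-count scaling 1 was lower (*Cd68*) and 5 higher. The lowest was *Cd68*, a glycoprotein of macrophage lysosomes (−0.81, edgeR adjusted p = 0.00401, and 0.117 without control 3), and the highest *Tmem55b*, a lipid phosphatase (−0.52, edgeR adjusted p = 0.0445). *Tmem55b* was not called without control 1 (0.0998), control 2 (0.0951), control 3 (0.0903), Rnf40ΔSC 2 (0.154) or Rnf40ΔSC 3 (0.098). *Mfsd8* was not called without control 3 (0.0819). Without control 3 the number called lower was 1, the median was −0.18 without Rnf40ΔSC 2, and *Clcn7* was called higher without control 2, as was *Clcn7* with *Npc1* without Rnf40ΔSC 2.

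Of 19 subunits of the proton pump that acidifies the lysosome 17 were tested, 1 fell and 3 rose (*Atp6v0a2*, *Atp6v1a* and *Atp6v1c1*), at a median of 0.21 (0.10 without control 3). DESeq2 called 1 lower and 1 higher, and under total-count scaling 1 was lower and 11 higher. With at least 10 counts in every library 14 were tested, of which 0 were lower and 5 higher. The replicate block gave 1 lower and 2 higher, with *Atp6v1a* not called. *Atp6v1a* lost its call without control 1 (0.0916), control 2 (0.0971), control 3 (0.129), Rnf40ΔSC 1 (0.096) and Rnf40ΔSC 2 (0.178). The called subunits lay between *Atp6v1g2* (−2.06, edgeR adjusted p = 9.63e-08) and *Atp6v1c1* (0.66, edgeR adjusted p = 0.000252), both called also with any 1 library left out. Without Rnf40ΔSC 3 the number that rose was 5, and *Atp6v0c* had no read in any library.

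Of 20 genes that sort enzymes to the lysosome, all tested, 1 fell, *Vps41* (−0.36, edgeR adjusted p = 0.0192), and 3 rose, *Gnptg* (1.03, edgeR adjusted p = 2.28e-06), *Ap1g1* and *Ap3d1*. DESeq2 called only *Gnptg*, and under total-count scaling 9 were higher and 0 lower. *Ap3d1* lost its call with any 1 library left out (0.0527 to 0.0945), and *Ap1g1* without control 3 (0.0624). *Vps41*, part of a tethering complex at the lysosome, lost its call without control 1 (0.0538), control 3 (0.0757) and Rnf40ΔSC 3 (0.0649), and without control 3 only *Gnptg*, a subunit of the enzyme that makes the mannose 6-phosphate tag, was called higher. Of 21 genes listed under the TFEB family and mTORC1 docking 19 were tested and 2 rose. These were *Zkscan3* (0.61, edgeR adjusted p = 0.000303) and *Lamtor1* (0.65, edgeR adjusted p = 0.0298). *Zkscan3* is on the list but belongs neither to the TFEB family nor to the docking genes. DESeq2 called *Zkscan3* alone, and total-count scaling gave 5 higher. *Lamtor1*, part of the lysosomal anchor of mTORC1, lost its call without control 2 (0.163), control 3 (0.114), Rnf40ΔSC 2 (0.0981) and Rnf40ΔSC 3 (0.0597), and without Rnf40ΔSC 3 *Tsc2* was called lower and *Rheb* higher.

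Of 25 autophagy genes, all tested, 6 fell and 6 rose. DESeq2 called 4 lower and 1 higher (*Atg14*), total-count scaling gave 4 lower and 14 higher, and RLE scaling again gave 6 and 6. The called genes ran from *Optn* (−1.13, edgeR adjusted p = 8.57e-05) to *Gabarapl2* (1.22, edgeR adjusted p = 0.0389). *Gabarapl2* lost its call without control 1 (0.0995), control 2 (0.0981), control 3 (0.124), Rnf40ΔSC 1 (0.166) and Rnf40ΔSC 2 (0.0767), and the number that rose was 1 without control 1, 2 without control 3 and 3 without Rnf40ΔSC 1. The medians of the sorting, TFEB and autophagy lists were −0.02, 0.03 and 0.17. With 1 library left out they ran from −0.11 to 0.04, from −0.05 to 0.07 and from 0.14 to 0.20, so that the direction of the first 2 was not settled. Under total-count scaling the medians of sorting (0.25), of other hydrolases (0.06) and of other membrane proteins (0.17) changed sign.

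The genes that make glycosphingolipids stand beside those that degrade them. Of 18 synthesis genes 15 were tested and 8 fell, with a median log2 fold change of −0.36 (−0.09 under total-count scaling), from the fatty acid hydroxylase *Fa2h* (−2.34, edgeR adjusted p = 5.58e-21) to the galactosyltransferase *B4galt6* (−0.36, edgeR adjusted p = 0.022). DESeq2 called 6 lower, and under total-count scaling 6 were lower and 1, *Sptlc1*, higher. The median was −0.23 without control 2. *B4galt6* lost its call without control 2 (0.215), Rnf40ΔSC 2 (0.0598) and Rnf40ΔSC 3 (0.0642). The synthesis genes summed to 6051, 7597 and 6924 CPM in control and 3159, 2924 and 2552 in Rnf40ΔSC libraries. Every Rnf40ΔSC sum was far below every control, also per total read. For the degradation genes, at 1459, 1534 and 1437 CPM in control and 1306, 1197 and 1442 in Rnf40ΔSC libraries, the groups overlapped through Rnf40ΔSC 3.

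The cell types of the nerve were checked with marker lists, since many lysosomal genes are abundant in macrophages. The 8 markers used for myelinating Schwann cells were all present and all fell, with a median log2 fold change of −1.93 (−1.66 under total-count scaling). They summed to 82800, 92480 and 88630 CPM in control and 25020, 23370 and 22710 in Rnf40ΔSC libraries. Every Rnf40ΔSC sum was far below every control, and the genes ran from *Drp2* (−2.18) to *Prx* (−1.59). Of 6 markers of the Schwann cell lineage 4 fell and 2 rose, *Ngfr* lowest (−0.90) and *Foxd3* highest (0.90), with *Egr2* not called without control 3 (edgeR adjusted p = 0.0873). Their sums were 1454, 1597 and 1573 CPM in control and 1118, 1066 and 1121 in Rnf40ΔSC libraries, which is lower in every Rnf40ΔSC library. The part of these markers in the members' values was not tested. By staining, the study found comparable shares of Sox10-positive Schwann cells in both genotypes at this age. It also found more Schwann cells per area in Rnf40ΔSC nerves.

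Of 21 macrophage markers with a count, *Adgre1* under its older symbol *Emr1*, 18 were tested, since *Aif1*, *Cd14* and *Ms4a7* were below the filter. Among the 18, 9 fell (5 without control 2, 6 without control 3 or Rnf40ΔSC 1, 4 by DESeq2, and 3 under total-count scaling: *Cd68*, *Cd74* and *Csf1r*), at a median of −0.43 (−0.16 under total-count scaling). They ran from *Cd74* (−0.89) to *C1qc* (−0.39, edgeR adjusted p = 0.0418, and 0.115, 0.0544, 0.141, 0.0696 and 0.217 without control 1, 2 and 3, Rnf40ΔSC 1 and Rnf40ΔSC 3). The 21 markers summed to 736, 692 and 730 CPM in control and 501, 498 and 503 in Rnf40ΔSC libraries, with *Csf1r* the most abundant (−0.63, edgeR adjusted p = 0.000294). All 3 Rnf40ΔSC sums were lower and almost equal, and lower also per total read. The study's stainings ran the other way, with more Iba1-positive macrophages in Rnf40ΔSC than in control nerves at this age. The cause of the difference was not tested. In its RNA-seq at this age the study found no sign that genes of inflammation and immune response were substantially raised. Of the list, *Cd68* is itself a lysosomal protein and is also counted above.

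Of 10 fibroblast markers 9 fell, from *Pi16* (−0.90) to *Dcn* (−0.26), at a median of −0.54 (−0.27 under total-count scaling, where 6 were lower and *Lum* was called higher). They summed to 56530, 55130 and 59640 CPM in control and 41970, 40090 and 40040 in Rnf40ΔSC libraries, with *Col3a1* the most abundant (−0.49). These sums also did not overlap under either scaling. The part of the macrophage and fibroblast markers in the members' values was not tested.

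**Figure D5:**
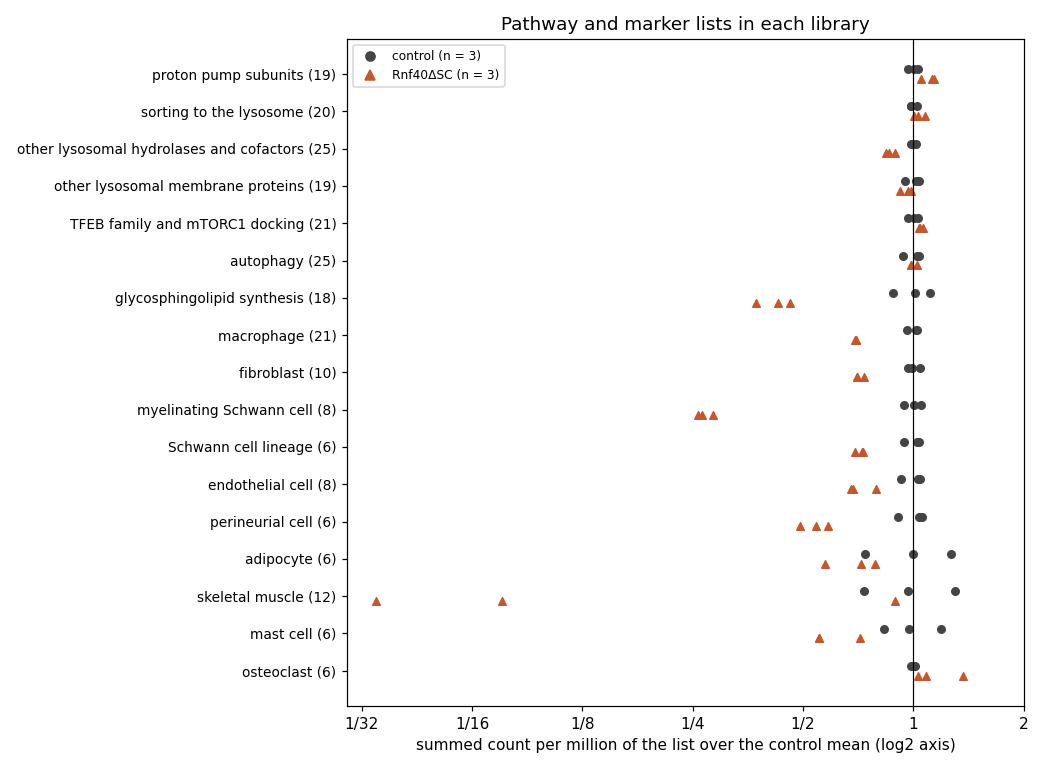
Summed CPM of each pathway and marker list in each library, divided by the mean of the 3 control libraries, on a log2 axis, with circles for control and triangles for Rnf40ΔSC. Except for 2 muscle sums, the myelin markers lie lowest, at 25020, 23370 and 22710 CPM in Rnf40ΔSC libraries, and the other lysosomal lists lie near the controls.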

How the data were processed

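RNA-seq of 6 libraries was used, and 0 columns of per-sample values were left unused. The deposited values are raw read counts per gene: the authors aligned reads to mm9 with TopHat and counted uniquely mapped reads per gene with HTSeq. The annotation and the strand setting are not given in the sources used here. Genes were filtered with filterByExpr, scaled by TMM and tested with edgeR's quasi-likelihood test (edgeR 4.0.16, R 4.3.3; robust fit, genotype as the only term), with Benjamini-Hochberg adjustment over all 11371 genes tested. Calls were made where the adjusted p did not exceed 0.05. Normalised counts are counts divided by effective library size, times the geometric mean of those sizes; CPM use the same scaling to 1000000. Lengths and overlaps come from GENCODE exons in mm9 and promoters from RefSeq.

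Alternatives were RLE scaling, total-count scaling, DESeq2 1.42.0 without a fold-change prior, no filter, at least 10 counts in every library, a replicate block, and leaving out each library in turn. Group comparisons were also made without *Asah1* and *Smpd1*, whose substrates are not glycosphingolipids, or without *Ctsa*, which also stabilises *Glb1* and *Neu1*, and ratios without the most abundant gene of each group. *Rnf40*, the members called, *Lamp1*, *Lamp2*, *Galc*, *Psap*, *Ctsd* and *Tfeb* are given in full, the others by range and count, with the 3 most abundant per length of each role; each other list gives its lowest and highest called gene, and each marker list its most abundant, except the 2 Schwann cell lists, from each of which 1 gene was also left out. *Arsa* and other genes named beyond this rule were chosen after their values were seen. The members and lists were chosen with earlier results of these data known.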

Additional observations from a re-analysis of the deposited data

How the results depend on the processing

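RLE scaling kept the direction and call of *Rnf40* and all 41 members, and *Galc*, *Gm2a*, *Ctsc*, *Ids*, *Gaa*, *Lipa* and *Lamp1* kept theirs in all 12 alternatives. Total-count scaling gave 5 members called lower, 10 higher and 2 past the study's limits (*Lipa*, *Ctsc*), and medians of 0.0547 for the members, −0.0995 for sphingolipid genes and 0.0476 for proteases. It reversed *Glb1* (0.006), *Hexa* (0.26), *Ctsa* (0.0492), *Ctsb* (0.046), *Ctsk* (0.10), *Ctsl* (0.007), *Lgmn* (0.21), *Gusb* (0.21), *Naglu* (0.0847), *Idua* (0.24), *Manba* (0.0676), *Fuca1* (0.0547) and *Grn* (0.0797); the change of scale moves all genes alike. DESeq2 called 8 lower and 2 higher. *Hexa* was 0.0033 without the filter and 0.0146 with at least 10 counts in every library, which leaves 39 members. With *Asah1* and *Smpd1* left out the sphingolipid median was −0.14 and the difference from the proteases 0.0863. Without the most abundant gene of each group the ratios were 0.445 in control and 0.340 in Rnf40ΔSC. The cause was not tested.

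Leaving out 1 library at a time gave 7 to 15 members called lower, 2 to 6 higher and 1 to 2 past the limits (2, *Lipa* and *Tfeb*, without Rnf40ΔSC 3). Signs changed in the ranges of *Gla* (−0.15 to 1.14), *Hexa* (−0.16 to 0.18), *Psap* (−0.0672 to 0.14), *Ctsk* (−0.27 to 0.0197), *Gusb* (−0.13 to 0.0349), *Sgsh* (−0.11 to 0.19), *Idua* (−0.26 to 0.24) and *Lamp2* (−0.0103 to 0.14). The cause was not tested.

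With the replicate block, 11 members were called lower and 5 higher. Deviations from the group mean of libraries with the same number correlated across genes at −0.09, −0.02 and −0.06 (genes are not independent replicates), so nothing but a number is shown to be shared. Depth limits genes of few counts most, such as *Gla*, *Cln3* and *Tfeb*. Replicates scattered beyond counting error, at a chi-square over its degrees of freedom of 1.78 to 1.91 between control libraries and 2.78 to 5.21 between Rnf40ΔSC libraries.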

Other observations

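The remaining marker lists are given as values, and their part in the members' values was not tested. Of 8 endothelial markers 4 fell, from *Cldn5* (−1.12) to *Pecam1* (−0.44), with sums of 755, 678 and 762 CPM in control and 495, 502 and 580 in Rnf40ΔSC libraries and *Cdh5* the most abundant. Under total-count scaling only *Cldn5* was called lower and the sums overlapped. Of 6 perineurial markers 5 were tested and 3 fell, from *Itgb4* (−1.69), the most abundant, to *Cldn1* (−0.28), with sums of 855, 993 and 978 CPM in control and 552, 461 and 511 in Rnf40ΔSC libraries. *Cldn1* was not called without control 2 (edgeR adjusted p = 0.235), control 3 (0.155), Rnf40ΔSC 2 (0.117) or Rnf40ΔSC 3 (0.0712), and total-count scaling and DESeq2 each called 2 of the list lower.

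Of 6 adipocyte markers 3 fell, from *Plin1* (−1.31) to *Adipoq* (−0.68, not called without control 3 at an edgeR adjusted p of 0.0863). Their sums, 1174, 868 and 1488 CPM in control and 926, 848 and 674 in Rnf40ΔSC libraries, overlapped, with *Fabp4* the most abundant, and total-count scaling called 2 lower. Of 6 mast cell markers 5 were tested and 3 fell, from *Mcpt4* (−1.15) to *Cpa3* (−1.03), the most abundant, with sums of 66.7, 78.0 and 95.5 CPM in control and 57.1, 44.4 and 44.3 in Rnf40ΔSC libraries. Only *Cpa3* was called without control 3 and by DESeq2, and total-count scaling called 2 lower. *Mcpt4* was also not called without control 2 (0.0744) or Rnf40ΔSC 2 (0.118). Of 6 markers of osteoclasts, the cells best known for *Ctsk*, only *Acp5* and *Itgb3* were tested, and neither was called by edgeR (unadjusted p = 0.501 and 0.0551) or DESeq2, while edgeR under total-count scaling called *Itgb3* higher. *Dcstamp* and *Calcr* were at 0 in every library, *Itgb3* was the most abundant, and the sums were 65.1, 66.7 and 66.5 CPM in control and 71.7, 68.1 and 90.2 in Rnf40ΔSC libraries, higher in each Rnf40ΔSC library.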
